A study of Rattus norvegicus with 10 samples.

Results

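The 35 antioxidant and glutathione genes described here are the superoxide dismutases, catalase, the glutathione peroxidases, the enzymes that make and recycle glutathione, the glutathione transferases, the thioredoxins and peroxiredoxins, and NRF2 with its partner and inducible enzymes. They were taken by name, and their probes are those whose RefSeq transcript, without version, belongs to 1 of these genes. This gave 39 probes, out of 30367 probes and 15154 named genes on the array. Of these, 37 probes of 34 genes were bright enough to be tested, and each of the 37 was well above background on all 10 arrays. Gclm, the modifier subunit of glutamate-cysteine ligase, was well above background on 0 of 10 arrays and has no value below.

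Gene expression was measured with one-colour Agilent arrays in whole testes of male rat pups at postnatal day 6. The pups came from Brown Norway sires and Sprague Dawley dams, so every sample shares this cross, and only the sires were treated. The sires received BEP or saline for 9 weeks and then recovered for 9 weeks, with 5 sires in each arm, and the design text speaks of 2 testes. BEP is the usual short name for bleomycin, etoposide and cisplatin, a drug combination used against testicular cancer. The labels give only the letters. The samples carry the sire's code, with the letter T on 5 and C on 5, numbered here T1 to T5 and C1 to C5 in deposition order. That T stands for BEP and C for saline is assumed from the letters and is not written in any label. Each array is the offspring of a different coded sire, but whether it holds 1 pup or several is not given, so the p-values measure the spread between these 10 samples.

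Superoxide dismutases turn superoxide into hydrogen peroxide, and catalase, the glutathione peroxidases and the peroxiredoxins remove the peroxide. Glutathione is built from cysteine, glutamate and glycine, kept reduced by glutathione reductase and joined to reactive compounds by the glutathione transferases. The transcription factor NRF2, encoded by Nfe2l2, is held in the cytoplasm and marked for breakdown by KEAP1, and under oxidative stress it drives many of these genes through a DNA motif, the antioxidant response element. In the testis, glutathione transferases are abundant in Sertoli and Leydig cells, and GPX4 is needed for male fertility.

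The core of the antioxidant response element, TGACNNNGC on either strand, was searched in RefSeq promoter windows of the GRCr8 assembly, each of 300 bases, 250 before and 50 after the start of the gene. It was found in 3602 of 27457 genes with a window (13.1%) and in 12 of the 30 antioxidant genes with a window (40%): Sod2, Gclm, Gsta1, Gsta2, Gsta3, Gstm5, Gstp1, Txnrd1, Prdx1, Prdx4, Prdx5 and Nfe2l2. The stretches below, each of 29 bases on the strand of its gene, show matches in members from the main families, with the motif in capitals.
Gclm, chr2:213031953-213031981, plus strand: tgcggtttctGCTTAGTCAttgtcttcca
Gstp1, chr1:210769748-210769776, minus strand: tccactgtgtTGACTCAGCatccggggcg
Txnrd1, chr7:22755964-22755992, minus strand: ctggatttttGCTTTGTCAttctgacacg
Prdx1, chr5:135383761-135383789, plus strand: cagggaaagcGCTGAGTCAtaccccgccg
Gsta3, chr9:31154962-31154990, plus strand: aactcaggcaTGACTTCGCattttttcct
Gsta1, chr9:31216484-31216512, minus strand: aactcaggcaTGACTTTGCatttttcttc
The match began 172 bases before the start of Gclm, 61 before Gstp1, 78 before Txnrd1, 135 before Prdx1 and 17 before Gsta3, and 30 after the start of Gsta1. A gene with several windows was counted if any of them held a match. Txnrd1 and Gsta3 each have another window, at another start, which holds no match. The matches of Gstp1 and Prdx1 also hold the AP-1 site TGACTCA, on either strand. The Gsta1 and Gsta3 stretches are close copies of each other, as are the genes, and the probe sequences were not used here, so signal from a near copy on the probe of a transferase cannot be told apart from its own. These matches are letters in a window and do not show that a factor binds there.

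Values below are log2 signals relative to the 75th percentile of the same array, so 0 is the brightness of that percentile and a difference of 1 is a doubling. A level belongs to its probe, and levels of different probes are not compared. The 75th percentile itself was 1905 to 2536 signal units on the T arrays and 1525 to 2686 on the C arrays, and an array had 70.4% to 74.8% of its probes well above background. The arrays lay on 2 slides, with 2 T and 3 C arrays on slide 1 and 3 T and 2 C arrays on slide 2.

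No antioxidant gene was found to differ between testes of T and C offspring, and the largest measured difference was 1.33-fold. Of the 34 tested genes, 0 differed between the groups with limma at an adjusted p under 0.05, where 0 of all 21891 tested probes did (percent called 0), and the adjusted p was 0.999 for every member. Before adjustment, 2 of the 34 (5.88%), both lower in T, had p under 0.05 and 0 kept all T arrays on 1 side of all C arrays. Over all 21891 tested probes 3.97% were under this unadjusted threshold and 2.38% were so with a lower value in T. Of the 11560 genes, each by its brightest tested probe, 4.01% were under it. Groups that did not overlap were found for 0.722% of probes. The share of members called was near the share of all genes. T was lower for 21 of the 34 (61.8%), against 53.9% of all genes. The median difference, T minus C, was -0.03 over the members and -0.01 over all tested genes, and the single genes ran from -0.41 to 0.15.

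**Figure D1:**
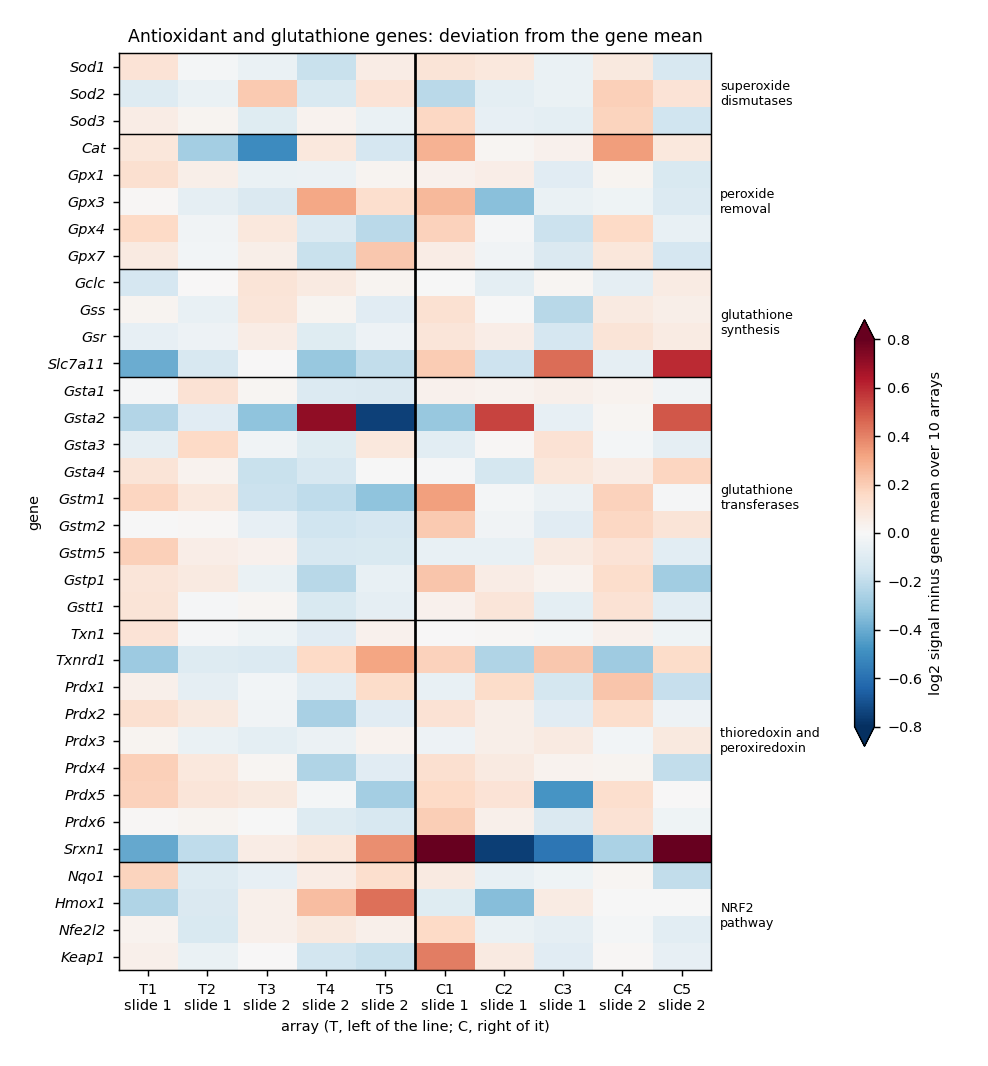
Deviation of each antioxidant gene from its own mean over the 10 arrays, in log2 units (red above the mean, blue below it), with arrays across, T left of the black line and C right of it, and genes down the page by role. Most cells are pale, and the strong colours sit in a few genes, above all Srxn1, Gsta2 and Slc7a11.

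The design limits how large a difference could have been missed. The 95% confidence interval of the difference, from the same limma fit, lay within 1.5-fold in either direction for 31 of the 34 members and within 2-fold for all 34, against 10434 and 11369 of the 11560 genes. The 3 members whose interval reached past 1.5-fold were Slc7a11, Gsta2 and Srxn1. In whole testes, fewer cells of a type and less RNA per cell cannot be told apart.

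**Figure D2:**
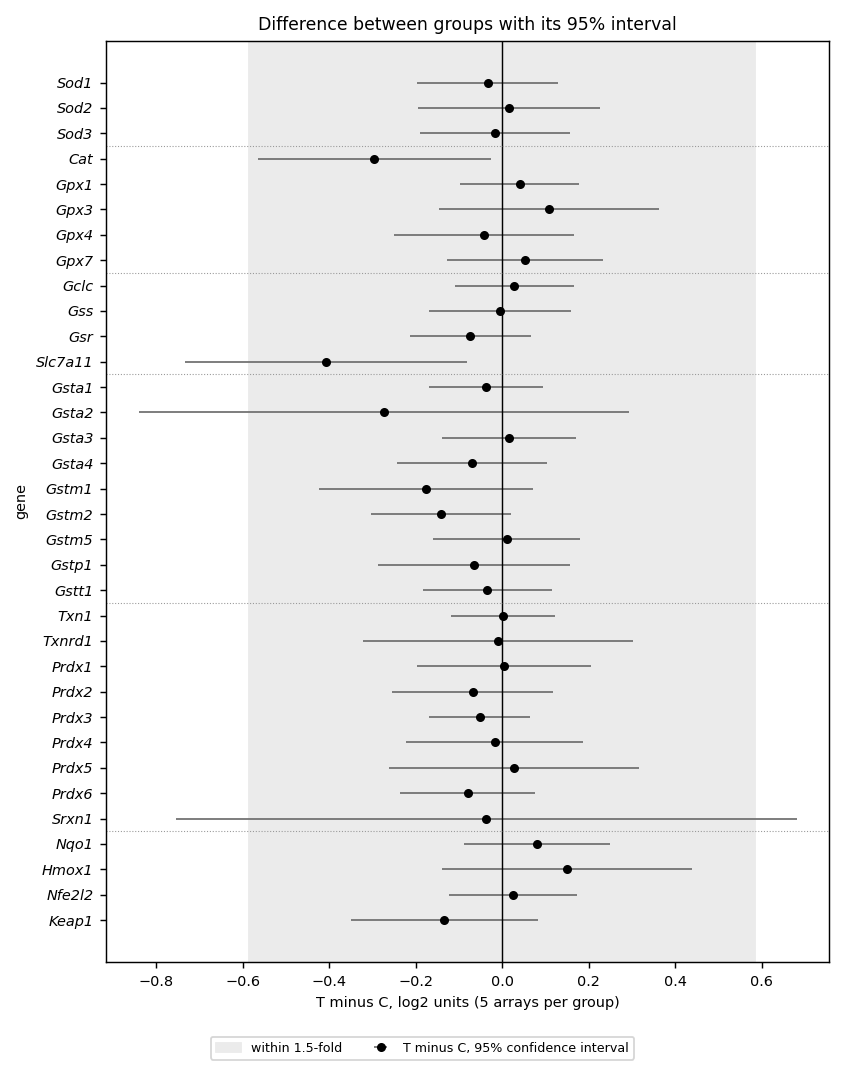
Difference between groups for the 34 tested antioxidant genes, T minus C in log2 units, with points for the difference, bars for its 95% confidence interval and a grey band for changes within 1.5-fold. The intervals of Slc7a11 and Cat lie below 0, and those of Srxn1, Gsta2 and Slc7a11 reach past the band.

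The difference with the smallest p was that of Slc7a11, the cystine importer xCT, which supplies the cysteine for glutathione. Its brighter probe measured -5.74, -5.47, -5.34, -5.64 and -5.54 in T1 to T5, against -5.14, -5.51, -4.89, -5.41 and -4.75 in C1 to C5. The 3 lowest T arrays lay below every C array, and the other two within the C range. The mean was -5.55 ± 0.16 in T and -5.14 ± 0.33 in C (SD, n = 5 each), a difference of -0.41 ± 0.15 (SE), or 1.33-fold, with a 95% interval of -0.73 to -0.08. Its limma p was 0.0191 before and 0.999 after Benjamini-Hochberg adjustment. The difference was -0.43 within slide 1 and -0.43 within slide 2. It was -0.20 with another background correction (normexp). The limma p before adjustment was then 0.056. That correction adds an offset of 50 units and starts from the median spot signal. The part of each in the smaller difference was not tested. The second probe of Slc7a11 was well above background on 1 array only, C4, so it gives no second reading. The RefSeq window of this gene, chr2:136668215-136668514 on the minus strand of GRCr8, holds no match to the motif above.

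Of the other glutathione synthesis and recycling genes, Gclc, the catalytic subunit of the ligase that joins glutamate to cysteine, measured -0.27, -0.13, -0.03, -0.06 and -0.11 in T1 to T5, against -0.13, -0.21, -0.12, -0.21 and -0.07 in C1 to C5. The T values reached both above and below the C values, and the difference was 0.03 ± 0.06 (SE). Gsr, glutathione reductase, measured -3.96, -3.93, -3.84, -3.99 and -3.93 in T1 to T5, against -3.79, -3.84, -4.03, -3.79 and -3.83 in C1 to C5. Each T array was below the median of the C arrays, but C3 was lower than every T array, and the difference was -0.07 ± 0.06 (SE; adjusted p = 0.999 in limma). Gss, glutathione synthetase, differed by -0.004 between T and C. The 4 tested genes of this role had a median difference of -0.04, with 1 higher and 3 lower in T.

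Cat, which encodes catalase, was the other member under the unadjusted threshold. It measured -2.55, -2.92, -3.15, -2.56 and -2.78 in T1 to T5, against -2.36, -2.63, -2.61, -2.31 and -2.56 in C1 to C5. Here T2, T3 and T5 lay below every C array, while T1 and T4 lay among them. The mean was -2.79 ± 0.25 in T and -2.49 ± 0.15 in C (SD, n = 5 each), a difference of -0.30 ± 0.12 (SE), or 1.23-fold, with a 95% interval of -0.57 to -0.03. In limma its p was 0.0342 before and 0.999 after adjustment. Within the slides the difference was -0.20 on slide 1 and -0.39 on slide 2. It was no longer under the unadjusted threshold without any 1 of C1, C4, T2, T3 or T5, and it was -0.21 without T3. The window of Cat, chr3:110329477-110329776 on the minus strand of GRCr8, holds no match to the motif.

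Among the glutathione peroxidases, Gpx1, the widespread cytosolic enzyme, measured 2.96, 2.88, 2.78, 2.78 and 2.86 in T1 to T5, against 2.87, 2.89, 2.74, 2.86 and 2.71 in C1 to C5. Gpx4, which protects membrane lipids and forms part of the sperm midpiece, measured 4.45, 4.26, 4.37, 4.18 and 4.07 in T1 to T5, against 4.48, 4.28, 4.12, 4.45 and 4.23 in C1 to C5. The groups overlapped for both genes, with differences of 0.04 ± 0.06 for Gpx1 and -0.04 ± 0.09 for Gpx4 (SE). The second Gpx4 probe gave -0.05. Gpx3, the secreted plasma form, differed by 0.11 and Gpx7, a peroxidase of the endoplasmic reticulum, by 0.05, both with intervals that held 0.

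The superoxide dismutases were nearly level between the groups. Sod1, the cytosolic copper-zinc enzyme, measured 5.38, 5.26, 5.22, 5.10 and 5.33 in T1 to T5, against 5.38, 5.36, 5.23, 5.35 and 5.15 in C1 to C5. Sod2, the mitochondrial manganese enzyme, measured 0.05, 0.10, 0.36, 0.03 and 0.26 in T1 to T5, against -0.06, 0.08, 0.10, 0.34 and 0.26 in C1 to C5. In each group the 2 highest Sod2 values came from slide 2. T minus C was -0.03 ± 0.07 for Sod1 and 0.02 ± 0.10 for Sod2 (SE), and it was -0.02 for Sod3, the extracellular form.

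Of the 9 glutathione transferases, 7 were lower in T, with a median of -0.07, and 0 of the 9 were under the unadjusted threshold. Gstm2 and Gstm1, of the mu class, had the smallest p of them. Gstm2 measured 3.50, 3.51, 3.44, 3.35 and 3.37 in T1 to T5, against 3.71, 3.47, 3.42, 3.67 and 3.61 in C1 to C5. Every T array was below the median of the C arrays, and the difference was -0.14 ± 0.07 (SE; adjusted p = 0.999 in limma). Gstm1 measured 2.96, 2.88, 2.62, 2.59 and 2.47 in T1 to T5, against 3.12, 2.78, 2.75, 2.98 and 2.78 in C1 to C5. The 3 T arrays of slide 2 were the lowest of all 10, while the 2 T arrays of slide 1 lay within the C range. The Gstm1 difference was -0.18 ± 0.11 (SE; adjusted p = 0.999 in limma). It was 0.04 within slide 1 and -0.32 within slide 2, and that of Gstm2 was -0.02 and -0.26. Both differences came mainly from slide 2, and whether they differ between the slides was not tested.

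Gstp1, the pi-class enzyme, measured 2.57, 2.55, 2.42, 2.25 and 2.41 in T1 to T5, against 2.69, 2.53, 2.50, 2.61 and 2.19 in C1 to C5. Gsta3, an alpha-class enzyme that in humans also takes part in steroid hormone synthesis, measured 2.43, 2.66, 2.47, 2.40 and 2.58 in T1 to T5, against 2.41, 2.51, 2.62, 2.49 and 2.43 in C1 to C5. Both had overlapping groups, with differences of -0.07 ± 0.10 for Gstp1 and 0.02 ± 0.07 for Gsta3 (SE). The second Gsta3 probe was far dimmer, with means of -5.385 in T and -5.38 in C, and gave a difference of -0.005. Gsta2 was the most variable transferase and measured -4.46, -4.32, -4.55, -3.52 and -4.98 in T1 to T5, against -4.53, -3.69, -4.29, -4.22 and -3.74 in C1 to C5. Its highest and its lowest array were both T arrays, T4 and T5. The difference of -0.27 had an interval of -0.84 to 0.29, which holds both no difference and a change past 1.5-fold. It was -0.56 to -0.12 over the alternatives, with an unadjusted limma p under 0.05 in 2 of 23. The -0.56 came with the sire number as a block. That fit rests only on T1, T2, T3, C2, C4 and C5, the arrays whose number occurs in both groups, and so leaves T4 and T5 without weight. The other transferases differed by -0.07 (Gsta4), -0.04 (Gsta1), -0.03 (Gstt1) and 0.01 (Gstm5). Gsta4 was 0.09 within slide 1 and -0.22 within slide 2, and Gstm5 was 0.14 and -0.08.

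**Figure D3:**
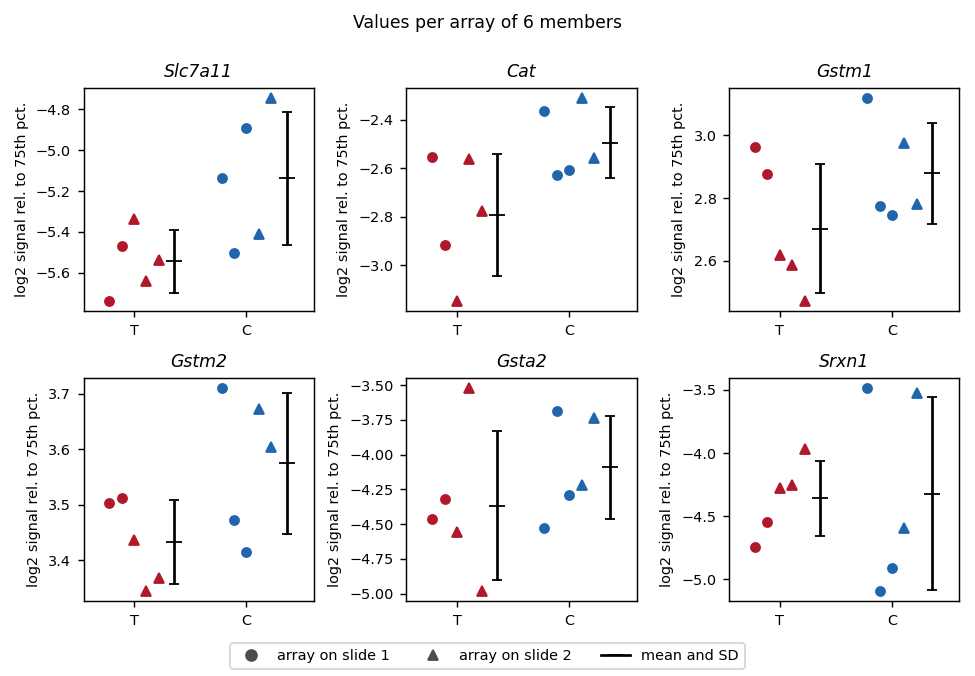
Values per array of 6 antioxidant genes, in log2 signal relative to the 75th percentile of the array, with T (red) left of C (blue), circles for slide 1, triangles for slide 2 and bars for the mean and SD of 5 arrays. The groups overlap in all 6 panels, and in Gstm1 the 3 low T arrays are those of slide 2.

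The thioredoxin and peroxiredoxin genes held 3 higher and 6 lower members of 9, with a median of -0.02. Txnrd1, cytosolic thioredoxin reductase, measured -1.99, -1.80, -1.81, -1.54 and -1.38 in T1 to T5, against -1.52, -1.94, -1.48, -1.99 and -1.55 in C1 to C5. Its difference was -0.01 ± 0.14 (SE), but -0.25 within slide 1 and 0.19 within slide 2, and its second probe gave -0.08. Prdx2, a cytosolic peroxiredoxin that is abundant in red blood cells, measured 4.55, 4.50, 4.39, 4.15 and 4.32 in T1 to T5, against 4.53, 4.46, 4.32, 4.55 and 4.37 in C1 to C5. Prdx6, which also repairs oxidised phospholipids, measured 2.01, 2.02, 2.00, 1.90 and 1.87 in T1 to T5, against 2.20, 2.04, 1.89, 2.12 and 1.96 in C1 to C5. The 5 T values of Prdx6 lay below the median of the C arrays, with a difference of -0.08 ± 0.07 (SE), and that of Prdx2 was -0.07 ± 0.08 (SE). The other peroxiredoxins and Txn1, thioredoxin itself, differed by -0.05 (Prdx3), -0.02 (Prdx4), 0.002 (Txn1), 0.004 (Prdx1) and 0.03 (Prdx5). Within slide 1 and slide 2, Prdx2 differed by 0.08 and -0.18, and Prdx5 by 0.21 and -0.14.

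Srxn1 encodes sulfiredoxin, which restores over-oxidised peroxiredoxins, and it varied most of all members. It measured -4.75, -4.55, -4.28, -4.25 and -3.97 in T1 to T5, against -3.48, -5.09, -4.92, -4.60 and -3.52 in C1 to C5. The C arrays held both the 2 highest values, C1 and C5, and the 2 lowest, C2 and C3, with the T arrays between them. The means were close, at -4.36 ± 0.30 in T and -4.32 ± 0.77 in C (SD, n = 5 each), and the interval of the difference ran from -0.75 to 0.68.

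NRF2 and its repressor also overlapped between the groups. Nfe2l2 measured 0.67, 0.51, 0.68, 0.71 and 0.68 in T1 to T5, against 0.80, 0.58, 0.57, 0.62 and 0.55 in C1 to C5. Keap1 measured -1.30, -1.40, -1.34, -1.49 and -1.53 in T1 to T5, against -0.94, -1.27, -1.43, -1.34 and -1.41 in C1 to C5. For each gene C1 was the highest array, and without it the Keap1 difference of -0.13 was -0.05. The Nfe2l2 difference was 0.02 ± 0.07 (SE), and 0.07 without C1.

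Nqo1 and Hmox1 are classical NRF2 targets, a quinone reductase and the inducible heme oxygenase. Nqo1 measured -3.95, -4.23, -4.20, -4.07 and -4.00 in T1 to T5, against -4.06, -4.19, -4.17, -4.12 and -4.33 in C1 to C5. Hmox1 measured -0.42, -0.30, -0.14, 0.06 and 0.25 in T1 to T5, against -0.28, -0.52, -0.12, -0.19 and -0.19 in C1 to C5. T4 and T5, both on slide 2, had the 2 highest Hmox1 values, and T1 was lower than all C arrays but C2. The differences were 0.08 ± 0.08 for Nqo1 and 0.15 ± 0.13 for Hmox1 (SE), and that of Hmox1 was -0.05 within slide 1 and 0.25 within slide 2. Members with the motif in their promoter window had a median difference of 0.004 (11 tested genes, 6 higher and 5 lower). Members without it, Nqo1 among them, had one of -0.04 (18 tested genes, 6 higher and 12 lower). Hmox1 was among the 5 tested members with no window and is in neither group. The motif groups thus do not part NRF2 targets from other members.

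The sign of T minus C differed between the slides for 19 of the 34 members (55.9%), against 51.3% of all genes tested. The slides were then compared with each other. Between slide 2 and slide 1, 0 of the 34 passed an adjusted p under 0.05 in limma, where 5.37% of all tested genes did, and 3 of 34 (8.82%) were under the unadjusted threshold, against 18.2% of all genes. These were Sod2 (0.21, slide 2 minus slide 1), Hmox1 (0.27) and Prdx4, a peroxiredoxin of the endoplasmic reticulum (-0.20). Prdx4 had the lowest adjusted p (0.107 in limma), and it was the only 1 of the 37 tested member probes whose slides did not overlap (11.3% of all probes), with 2.20, 1.95 and 2.10 in T3 to T5 and 2.21 and 1.99 in C4 and C5 on slide 2, and 2.38 and 2.28 in T1 and T2 and 2.32, 2.26 and 2.22 in C1 to C3 on slide 1.

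The spread of the members was set against that of all tested probes, since dim probes vary more. The SD over the 10 arrays had a median of 0.12 for the members and 0.14 for all tested genes. Srxn1 (SD 0.55) and Gsta2 (0.46) stood at percentiles 96.6 and 95.1 among tested probes of like signal, and Slc7a11 (0.32) at percentile 71.1. At the other end were Txn1 (0.05, percentile 2), Gsr (0.09, percentile 1.2), Nqo1 (0.11, percentile 5.1) and Prdx3, the mitochondrial peroxiredoxin (0.06, percentile 5.4). The probes of Txn1, Gsr and Slc7a11 are means of 10 spots per array and those of Nqo1, Prdx3, Srxn1 and Gsta2 of 2, which the percentiles do not take into account.

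**Figure D4:**
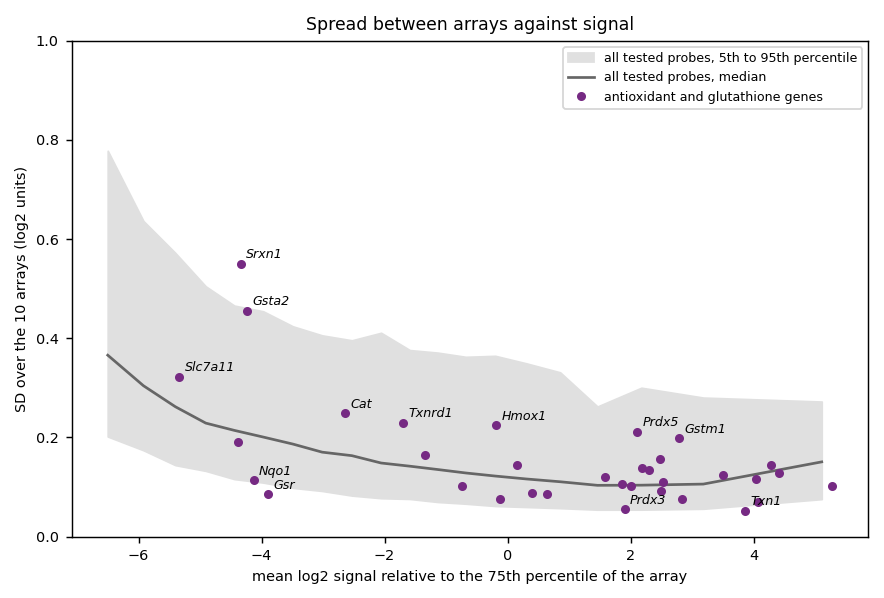
SD over the 10 arrays against mean signal for the 34 tested antioxidant genes (purple), with the median (line) and the 5th to 95th percentile (grey band) of all tested probes in bins of signal, both axes in log2 units. Srxn1 lies above the band, Gsta2 near its upper edge and Gsr and Txn1 below it.

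Relations of members with Nfe2l2 and with marker lists across the 10 arrays were computed for 9 pairs (a further pair, Gclm with Nfe2l2, could not be measured), and 0 of the 9 passed after Benjamini-Hochberg adjustment (two-sided permutation tests, 100000 resamples). The strongest by r was Nqo1 with Nfe2l2, at r = 0.664 (permutation p = 0.037, adjusted 0.274) and rho = 0.636 (p = 0.055, adjusted 0.248). It was 0.679 without C1 and T2, the arrays farthest from the median of Nfe2l2, and 0.691 with slide means subtracted. With single arrays left out it was 0.612 to 0.723, but with quantile normalization it was 0.417. Srxn1 with Nfe2l2 gave r = 0.457 (permutation p adjusted 0.555) and rho = 0.43, but 0.126 without C1 and T2. Leaving out single arrays, it was 0.152 without C1 and 0.792 without C5, so its size depends on which C array is kept. Gclc and Txnrd1 with Nfe2l2 gave r = 0.0741 and 0.244, and rho = 0.188 and 0.176.

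Gpx1 with the mean of the erythroid markers gave r = 0.603 (permutation p = 0.061, adjusted 0.274) and rho = 0.758 (p = 0.0148, adjusted 0.133), and 0.807 without C3 and C4. Prdx2 with the same markers gave r = 0.354 and rho = 0.406, and 0.818 without C3 and C4, the 2 arrays with the fewest erythroid transcripts. For Cat with the erythroid markers r was -0.261 and rho -0.236, for Gsta3 with the Leydig markers 0.0781 and -0.139, and for Hmox1 with the macrophage markers 0.187 and 0.152.

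Of 83 further genes of redox and glutathione handling, 77 were on the array and 74 were tested, with 37 higher and 37 lower in T and a median of -0.001. In limma 0 of the 74 passed an adjusted p under 0.05, and 4 (5.41%, against 4.01% of all genes) were under the unadjusted threshold. Aox1, aldehyde oxidase, measured -3.32, -3.21, -3.04, -3.67 and -3.17 in T1 to T5, against -3.45, -3.83, -4.00, -3.89 and -3.45 in C1 to C5, a difference of 0.44 ± 0.14 (SE). All its T arrays but T4 lay above all C arrays. Gsto2, an omega-class glutathione transferase, measured -5.10, -4.93, -4.96, -4.79 and -5.07 in T1 to T5, against -5.39, -5.14, -5.12, -5.22 and -5.12 in C1 to C5. Its difference was 0.23 ± 0.08 (SE), and it was the only 1 of the 74 whose groups did not overlap. Of all tested probes 0.722% had groups without overlap, and those of Gsto2 nearly touched at T1 and C5. Gpx8, a peroxidase of the endoplasmic reticulum, differed by -0.22 ± 0.08 (SE). Cbs, which feeds homocysteine towards cysteine, differed by 0.69 ± 0.30 (SE) but was well above background on 7 of the 10 arrays. The limma p before adjustment was 0.0112 for Aox1, 0.0158 for Gsto2, 0.0217 for Gpx8 and 0.0445 for Cbs, and the adjusted p was 0.9985 for the 4.

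Markers of the labelled tissue were measured, with 9 of 10 listed germ cell, 9 of 10 Sertoli cell and 7 of 8 Leydig cell markers tested. Of 76 cell type markers in 10 lists, 64 were tested and 0 of them passed an adjusted p under 0.05 in limma. Of all tested genes 53.9% were lower in T and 4.01% were under the unadjusted threshold, and the counts of each list are read against these shares. Germ cell markers were higher in T for 8 of 9 (median 0.15, 3 under the threshold), erythroid markers for 6 of 6 (0.27, 0 under it) and Leydig cell markers for 5 of 7 (0.16, 1 under it). Endothelial markers were higher for 4 of 5 (0.15, 2 under it), skeletal muscle markers for 4 of 5 (0.24, 1 under it) and duct epithelium markers for 5 of 6 (0.06, 0 under it). Sertoli cell markers were lower in T for 7 of 9 (-0.05), peritubular myoid markers for 5 of 6 (-0.10), macrophage markers for 6 of 10 (-0.03) and the 1 tested fat marker was lower (-0.26), with 0 of these under it. The mean of the germ cell markers, centred per gene, ran from -0.066 to 0.264 on the T arrays and from -0.134 to 0.001 on the C arrays. That of the erythroid markers ran from -0.049 to 0.316 on the T arrays and from -0.696 to 0.205 on the C arrays, with C3 lowest. The part of these shifts in the values of the antioxidant genes was not tested.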

How the data were processed

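RNA from the testes (100 ng) was labelled with Cy3 and hybridised to one-colour arrays, per the labels' protocols. The deposited scanner files hold spot intensity values that were background-subtracted in Agilent Feature Extraction 10.7.3.1, per the file headers, with no scaling between arrays. The authors' deposited table holds log2 values of 21220 probes, used as an alternative. Set against the scanner values, its columns had slopes of 0.994 to 1.002, so it is on the log2 scale, runs the same way as the signal and is centred on each probe. How its arrays were scaled is unknown. Its column medians were 0.0033, 0.0038, -0.0027, -0.0171 and -0.0025 for T1 to T5, and 0.0291, 3e-04, -0.0167, 0.0203 and -0.0091 for C1 to C5.

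From each array's log2 processed signal its 75th percentile was subtracted, spots flagged as outliers (494 to 745 per array) were set missing, and spots of a probe were averaged. Probes well above background on at least 5 of 10 arrays (21891, 72.1%) entered a limma fit of T minus C (limma 3.58.1, R 4.3.3). Its two-sided p-values were adjusted over all these probes by Benjamini-Hochberg, with a threshold of 0.05. The pipeline was tested on simulated arrays with the means and spread of the real ones, with 200 probes changed at each fold. At an adjusted p under 0.05 in limma, 8% were recovered at 1.25-fold, 59% at 1.5-fold and 84% at 2-fold. False calls among the unchanged probes numbered 1, 5 and 17. The simulated noise was normal and independent between probes, without differences between slides, so the rates on the real arrays can differ. A gene with several tested probes is represented by the brightest. Precision is limited by the number of arrays, 5 per group. Symbols came from RefSeq (GRCr8) by transcript accession and named 17998 probes. The array design names rn4 on 5 arrays, so no probe coordinates are given.

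The members and lists were chosen with earlier results of these data known. Values per array are given for members under p 0.05 or without overlap, for the 3 with the largest SD and for a fixed panel of 20. Of the further redox genes, those under p 0.05 or without overlap are named. The motif, the promoter stretches and the genes of low spread were chosen after the values were seen. Alternatives were the background correction (normexp with offset 50, on the median spot signal in place of the mean), scaling, filter, flagged spots, slide, sire codes, variance model, choice of probe, the authors' table and leaving out each array.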

Additional observations from a re-analysis of the deposited data

Results flagged for a closer look

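In 6 of the 74 sets of 5 arrays examined, 1 array stood far from the other four by Dixon's criterion, where chance alone gives about 1 set in 20 (5%). C3 was low for Gsr, at -4.028 against -3.839 to -3.789 in the other C arrays, and for Prdx5, at 1.628 against 2.108 to 2.26. C5 was low for Gsta1, at 4.038 against 4.094 to 4.105, and for the dimmer Gsta3 probe, at -5.856 against -5.32 to -5.182. Nfe2l2 was low on T2, at 0.514 against 0.665 to 0.713 in the other T arrays, and high on C1, at 0.799 against 0.554 to 0.624 in the other C arrays. For Gsta1 the gap was 0.06 log2 units or less, since its other C arrays lay within 0.011.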

How the results depend on the processing

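No member and no probe of the array passed an adjusted p under 0.05 in limma under any of the alternatives that were run (869 probes at an unadjusted p under 0.05). That count of 869 was 483 to 1151 over the alternatives, and 483 with normexp background correction. The 2 members under the unadjusted threshold became 0 with normexp, 0 within slide 1 and 1 with the sire number as a replicate block, where that 1 was Gsta2 (-0.56). With that block only T1, T2, T3, C2, C4 and C5, whose numbers occur in both groups, bear on the difference. Within slide 2 there were again 2, but these were Gstm1 (-0.32) and Gstm2 (-0.26), with Slc7a11 and Cat no longer among them. Leaving out 1 array at a time gave 1 to 3, with 1 left without C1, C4, T2, T3 or T5. Slc7a11 stayed below 0 in its 23 alternatives (-0.50 to -0.20, p under 0.05 before adjustment in 19) and Cat in its 23 (-0.39 to -0.20, in 14). The median of the members was -0.06 to 0.01, and that of all probes -0.03 to 0.01. The block changed no adjusted call. The deviations of T and C arrays of the same sire number correlated at -0.512 (number 2), 0.282 (4) and 0.194 (6). The arrays of number 2 lay on different slides and those of 4 and of 6 on the same slide. These few pairs cannot tell a shared number from a shared slide, so whether the numbers pair the samples is not known. The relation of Prdx2 with the erythroid markers was r = -0.121 with quantile normalization, and that of Nqo1 with Nfe2l2 was 0.417. Leaving out 1 array gave r of -0.14 to 0.332 for Gsta3 with the Leydig markers, -0.0414 to 0.361 for Hmox1 with the macrophage markers and -0.0369 to 0.202 for Gclc with Nfe2l2. The cause of these shifts was not tested.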

Other observations

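Over the 34 tested antioxidant genes, each centred on its own mean, the average ran from -0.04 to 0.008 on the T arrays and from -0.048 to 0.11 on the C arrays, with an SD of 0.02 in T and 0.06 in C (n = 5 each). C1, the array with the highest average (0.11) and the lowest 75th percentile of signal (1525 units), also held the highest Nfe2l2, Keap1 and Srxn1 values of all 10 arrays. C1 also had the highest means of the peritubular myoid (0.304), Leydig (0.275) and endothelial (0.209) markers and of the 1 tested fat marker (1.828). T4, the array with the lowest average among T (-0.04), had the highest mean of the germ cell markers (0.264) and the lowest of the Sertoli cell markers (-0.203). These arrays were picked out after their values were seen.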
